A study of Mus musculus with 12 samples.

Results

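The genes described here are broadly expressed genes of mouse chromosome 11: parts of the transcription, RNA, repair, signalling, protein breakdown and cytoskeletal machinery that most cell types use. They were named as a list of 46 symbols, and a gene was taken where its symbol stood alone and exactly in the annotation of a probe set. That found 44 of the 46 genes on 49 probe sets, and where a gene had several, the one with the highest mean signal stood for it. The 44 genes all lie on chromosome 11 in the RefSeq gene table, and all 44 passed the filter on low signal, out of 17621 genes that did. The list was selected on the difference between the cell lines in both cultures, already known for this chromosome, so the difference between the lines is given for them as a description, with its standard error (SE) and no test. Whether they are broadly expressed across tissues could not be checked in these arrays, which hold only cultures of embryonic stem cell lines. Within these cultures the genes were well expressed. The lowest, Stat5b, stood at the 56.9 percentile of signal, the median gene at 92.2, and 25 of the 44 lay in the top 10%.

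RNA of mouse embryonic stem cells was measured on 12 Affymetrix MoGene-1_0-st arrays, in 4 groups of 3. The lines were Bmpr1a-/- cells, which lack a bone morphogenetic protein receptor and express green fluorescent protein (GFP), and wild-type cells, which are GFP negative. Each line was grown for 3 days in N2B27, a serum-free medium, either separately or mixed with the other line in equal proportions, and the mixed cells were sorted on GFP before RNA was taken. Genotype, line and GFP mark therefore change together and cannot be told apart. The file headers use 1 name for each line throughout and label the 3 arrays of every group exp1 to exp3. No source used here says whether the 3 arrays of a group came from separate cultures. The p-values therefore measure the spread between these samples, which may be technical. Median signal per array was 51.6 to 54.3, and pairs of arrays correlated at 0.9799 to 0.9981. Bmpr1a itself, on chromosome 14, had a mean signal of 434 ± 25 (SD, n = 3) in separate Bmpr1a-/- cells and 549 ± 33.8 in separate wild-type cells. Its difference was -0.34 in separate (SE 0.07, limma adjusted p = 0.0091) and -0.50 in mixed culture (SE 0.07, adjusted p = 0.00044). Where its probes lie relative to the deleted part was not given in the sources used here. All 8 pluripotency marker genes examined had a signal over the median probe set. Their summed signal was 9097 to 10030 in separate Bmpr1a-/- and 6160 to 7004 in separate wild-type cells, and 8281 to 8597 and 6769 to 7247 in the mixed ones. Markers of some other cell types also stood apart between the lines, but fewer of them had a signal over the median. The count was 4 of 6 fibroblast, 3 of 6 neural, 1 of 6 trophoblast, 1 of 6 extraembryonic endoderm and 0 of 5 mesendoderm genes. In separate Bmpr1a-/- against separate wild-type cells, the sum of 6 fibroblast genes was 415 to 540 against 681 to 771, of 5 mesendoderm genes 331 to 487 against 225 to 226, of 6 trophoblast genes 342 to 396 against 291 to 314 and of 6 extraembryonic endoderm genes 256 to 280 against 284 to 330. In mixed culture these sums were 495 to 521 against 554 to 690, 234 to 254 against 244 to 259, 368 to 480 against 290 to 301 and 250 to 279 against 273 to 306. The 6 neural genes gave 833 to 850 against 811 to 1015 in separate and 739 to 790 against 852 to 1065 in mixed culture. What part these differences in markers have in the values below was not tested. In RNA from whole populations, fewer cells of a type and less RNA per cell cannot be told apart.

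As background, the amount of a transcript often follows the number of copies of its gene, so a change that touches a whole chromosome can move many unrelated genes the same way. Subunits of one complex are commonly coded on different chromosomes, and such a change can then alter some subunits and leave the others. Cells can offset part of a copy change in the RNA or, more often described, in the protein. Cultured embryonic stem cells are known to gain or lose whole chromosomes, and chromosome 11 is among those reported to be gained in mouse lines. No copy number was measured here.

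The broadly expressed genes of chromosome 11 had lower signal in Bmpr1a-/- than in wild-type cells in both cultures. Their median difference, Bmpr1a-/- minus wild-type on the log2 scale, was -0.32 in separate culture (middle 50% of genes from -0.39 to -0.19) and -0.34 in mixed culture (-0.48 to -0.16). In each culture 41 of the 44 were below 0, and 39 were below 0 in both. The SE of a single gene's difference ran from 0.06 to 0.16 with a median of 0.09. For scale, a ratio of 2 to 3 is -0.585 on the log2 scale, and the medians were smaller than that. Other genes of chromosome 11 did the same: the 586 with at least the signal of the lowest member had medians of -0.31 and -0.41, and 93.0% and 89.6% of them were below 0. The 6704 genes of other chromosomes at that signal had medians of 0.0040 and -0.05, with 49.0% and 58.5% below 0. Over all genes that passed the filter, without that bound on signal, the medians were -0.16 in both cultures for the other 1341 genes of chromosome 11 and -0.02 in separate culture for all genes tested.

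**Figure D1:**
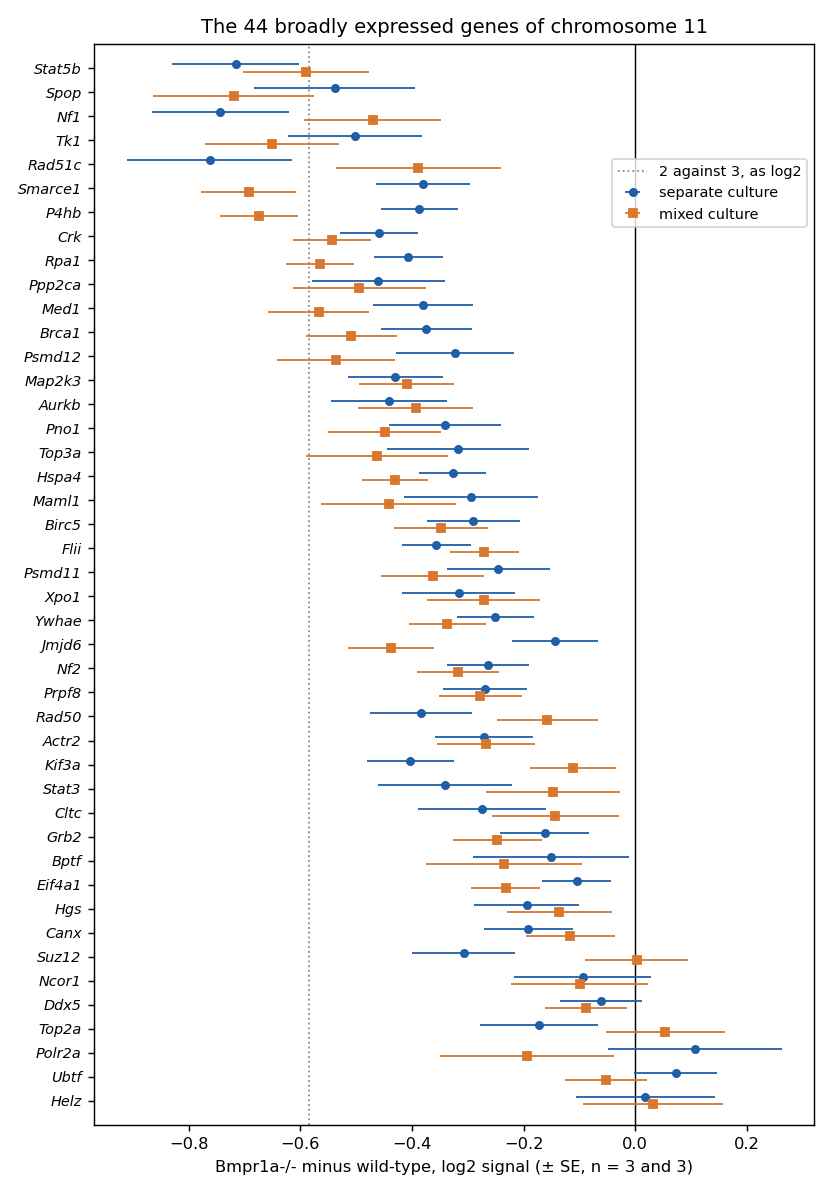
Difference in log2 signal between Bmpr1a-/- and wild-type cells for each of the 44 genes, ordered by the mean of both cultures; circles show separate and squares mixed culture, bars show the SE (3 arrays against 3), the solid line is no difference and the dotted line is a ratio of 2 to 3 (-0.585). Most genes lie between the lines, and on the probe sets used Helz, Ubtf, Polr2a, Top2a, Ddx5 and Ncor1 lie closest to 0.

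The median of the 44 genes was lower in every Bmpr1a-/- array than in any wild-type array. Set against the mean of the 6 wild-type arrays, the median of the 44 genes was -0.21, -0.37 and -0.35 in the separate Bmpr1a-/- arrays and -0.34, -0.39 and -0.27 in the mixed ones. In the wild-type arrays, whose own mean was the reference, it lay between -0.05 and 0.03. For 27 of the 44 genes the signals of the 6 Bmpr1a-/- arrays all lay below those of the 6 wild-type arrays, as did 6.62% of all genes tested. Within separate culture the 3 arrays lay wholly below the other 3 for 31 genes, against 13.8% of all genes, and within mixed culture for 32, against 20.2%. At an adjusted p under 0.05 in limma, 23 were called lower in separate culture (6.30% of all genes) and 26 in mixed culture (10.1%). These counts, like the order of the array medians, follow from how the list was drawn up and nothing is read from them.

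**Figure D2:**
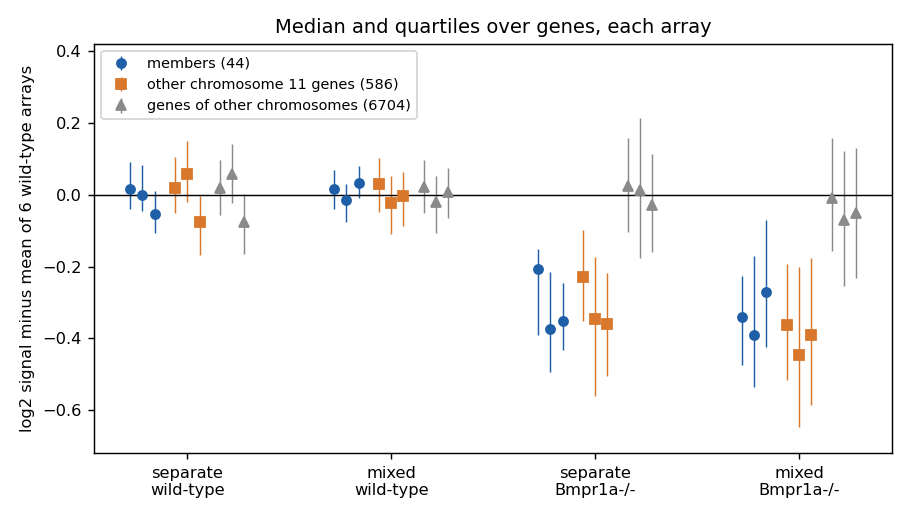
Median log2 signal relative to the mean of the 6 wild-type arrays, for each of the 12 arrays, in the 44 genes (circles), the other 586 genes of chromosome 11 at their signal (squares) and 6704 genes of other chromosomes (triangles); bars span the quartiles over genes. Both sets from chromosome 11 lie below 0 in all 6 Bmpr1a-/- arrays, at medians of -0.21 to -0.45, while the genes of other chromosomes stay between -0.08 and 0.06 in every array.

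The difference was not the same for every gene. Averaged over both cultures, it was at or below -0.5 for 8 of the 44 genes, between -0.5 and -0.3 for 14, between -0.3 and -0.1 for 16 and above -0.1 for 6. The 8 were Stat5b, Spop, Nf1, Tk1, Rad51c, Smarce1, P4hb and Crk, and the 6 were Ncor1, Ddx5, Top2a, Polr2a, Ubtf and Helz. On a further probe set Ddx5 stood at -0.19 in separate and -0.15 in mixed culture, outside that last band. Of the other chromosome 11 genes at that signal, 23.2%, 37.7%, 25.3% and 13.8% fell in the same bands, and of the genes of other chromosomes 2.13%, 6.04%, 25.4% and 66.4%. The SD of the averaged difference over the 44 genes was 0.176. A gene's difference in separate culture went with its difference in mixed culture across the 44 genes (Pearson's r = 0.623, Spearman's rho = 0.689), where both differences come from the same lines on different arrays. At the same signal r was 0.58 across the other chromosome 11 genes and 0.668 across genes of other chromosomes. Across the 44, the correlation with log2 mean signal was 0.271 and with log2 gene length -0.00468.

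The promoters of the 3 genes with the largest difference and the 3 with the smallest are shown so that the ends of this range can be compared. They are RefSeq windows on GRCm38.p6, from 250 bases before to 50 after the start: Stat5b at chr11:100850532-100850831 on the - strand, Spop at chr11:95413833-95414132 on the + strand, Nf1 at chr11:79339642-79339941 on the + strand, Polr2a at chr11:69758584-69758883 on the - strand, Ubtf at chr11:102320813-102321112 on the - strand and Helz at chr11:107547683-107547982 on the + strand. Each is written 5′ to 3′ along the gene's own strand. Capitals mark CCAAT (the box bound by NF-Y), GGGCGG (the GC box), CCGGAAG (a core bound by ETS factors) and ATGGCG (the core bound by YY1), on either strand. Where GC boxes overlap, the capitals run together.
Stat5b: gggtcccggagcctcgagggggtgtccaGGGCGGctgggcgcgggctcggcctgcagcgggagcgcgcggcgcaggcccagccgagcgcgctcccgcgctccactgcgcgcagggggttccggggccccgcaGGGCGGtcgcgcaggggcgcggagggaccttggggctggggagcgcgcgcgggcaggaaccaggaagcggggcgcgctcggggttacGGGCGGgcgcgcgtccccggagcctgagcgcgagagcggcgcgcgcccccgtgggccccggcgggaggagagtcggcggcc
Spop: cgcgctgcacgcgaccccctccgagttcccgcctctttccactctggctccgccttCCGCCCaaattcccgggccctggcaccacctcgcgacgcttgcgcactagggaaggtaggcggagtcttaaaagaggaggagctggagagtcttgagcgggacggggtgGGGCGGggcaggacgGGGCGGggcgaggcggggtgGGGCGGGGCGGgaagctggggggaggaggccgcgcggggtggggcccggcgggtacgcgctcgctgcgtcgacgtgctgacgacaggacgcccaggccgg
Nf1: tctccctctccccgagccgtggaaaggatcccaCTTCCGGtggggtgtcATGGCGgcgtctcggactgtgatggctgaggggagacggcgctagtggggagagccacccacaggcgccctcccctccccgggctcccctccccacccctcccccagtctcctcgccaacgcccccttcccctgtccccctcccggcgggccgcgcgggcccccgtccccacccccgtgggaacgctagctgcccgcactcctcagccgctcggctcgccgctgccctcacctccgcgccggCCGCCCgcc
Polr2a: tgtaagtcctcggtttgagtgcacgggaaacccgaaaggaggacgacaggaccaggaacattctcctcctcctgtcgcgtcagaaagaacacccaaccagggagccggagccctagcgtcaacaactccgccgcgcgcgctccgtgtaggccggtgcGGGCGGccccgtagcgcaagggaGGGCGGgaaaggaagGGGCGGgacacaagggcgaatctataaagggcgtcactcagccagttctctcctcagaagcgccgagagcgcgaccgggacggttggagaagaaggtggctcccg
Ubtf: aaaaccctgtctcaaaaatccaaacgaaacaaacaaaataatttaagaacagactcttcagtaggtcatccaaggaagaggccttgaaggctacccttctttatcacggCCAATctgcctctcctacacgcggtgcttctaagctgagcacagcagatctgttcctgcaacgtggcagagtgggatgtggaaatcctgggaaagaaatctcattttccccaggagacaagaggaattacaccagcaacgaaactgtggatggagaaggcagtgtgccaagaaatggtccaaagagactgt
Helz: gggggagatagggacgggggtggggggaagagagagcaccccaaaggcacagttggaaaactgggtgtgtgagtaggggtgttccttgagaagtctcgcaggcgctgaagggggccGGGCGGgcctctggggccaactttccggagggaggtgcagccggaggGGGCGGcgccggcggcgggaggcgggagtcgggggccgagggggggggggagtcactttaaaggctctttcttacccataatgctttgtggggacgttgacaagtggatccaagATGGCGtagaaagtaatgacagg
The Stat5b, Spop and Nf1 windows shown had 50, 37 and 30 CG dinucleotides, and the Polr2a and Helz windows 30 and 17. Where a gene has several windows in the table, the first listed is shown. Stat5b has 2, with 7 and 50 CG, and the one shown is the higher. Ubtf has 6, with 6 to 40 CG, and the one shown is the lowest. GC boxes numbered 3 in Stat5b, 5 in Spop and 1 in Nf1, against 3 in Polr2a, 2 in Helz and 0 in Ubtf.

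A window was found for 40 of the 44 genes (none for Smarce1, Aurkb, Top3a and Rad50), and 7 motifs were searched on both strands. The median number of CG was 27 in the 44 genes' windows, 23 in those of other chromosome 11 genes at their signal, 23 in those of genes elsewhere at their signal and 7 over all 27025 promoters. GGGCGG was in 77.5% of the windows, against 68.2%, 70.6% and 35.9% in those 3 sets. CCAAT was in 57.5%, against 39.5%, 39.8% and 37.9%, and ATGGCG in 32.5%, against 21.9%, 18.2% and 9.24%. CCGGAAG was in 17.5%, fewer than the 21.3% and 21.9% of the sets of like signal and more than the 9.12% of all promoters. CACGTG (the E-box bound by MYC and USF factors) was in 10%, against 13.8%, 11.3% and 7.24%. The 10-base palindrome bound by NRF1 was in 2.5%, against 1.24%, 2.7% and 0.977%, and TATAAA (the TATA box) in 5%, against 6.2%, 6.08% and 14.2%. In their CG content and TATA boxes the windows were close to those of other well expressed genes on any chromosome. A match is a description of letters in the window and not a binding site.

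Among the 11 genes of transcription and chromatin the median difference was -0.29 in separate and -0.23 in mixed culture, and for 3 of them all 6 Bmpr1a-/- arrays lay below all 6 wild-type arrays. Beside this count and those of the roles below, the share was 6.62% of all genes tested. It was 45.7% of other chromosome 11 genes with at least the signal of the lowest of the 44. The list was selected on this difference, so nothing is read from the counts by role. Stat5b, a transcription factor switched on by cytokine receptors, had the largest difference of the 44. Stat5b signal was 120.0, 138 and 141 in separate wild-type and 89.0, 68.5 and 86.4 in separate Bmpr1a-/- cells. Mixed wild-type cells gave 118, 146 and 143 for Stat5b and mixed Bmpr1a-/- cells gave 92.6, 83.5 and 93.7. The Bmpr1a-/- values stayed under 94 and the wild-type values above 118, with no overlap. The difference was -0.72 in separate and -0.59 in mixed culture (SE 0.11 each), or 60.9% of wild-type in separate and 66.4% in mixed culture. Ubtf, which sets up ribosomal RNA genes for RNA polymerase I, had the smallest difference of this group. Ubtf signal was 467, 467 and 463 in separate wild-type and 469, 544 and 461 in separate Bmpr1a-/- cells. With the lines mixed, Ubtf read 469, 517 and 519 in wild-type and 472, 486 and 492 in Bmpr1a-/- cells. These groups overlapped in both cultures, and the difference was 0.07 in separate and -0.05 in mixed culture (SE 0.07 each).

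The other genes of that group spanned the range between these. Smarce1, a subunit of the BAF chromatin remodeller, differed by -0.38 and -0.69 (separate and mixed), and Med1, a subunit of Mediator, the bridge between transcription factors and RNA polymerase II, by -0.38 and -0.57. The Notch coactivator gene Maml1 differed by -0.29 and -0.44. Jmjd6, which hydroxylates lysines of splicing proteins, differed by -0.14 and -0.44. For Stat3, which carries the signal of leukaemia inhibitory factor in mouse embryonic stem cells, the values were -0.34 and -0.15. Suz12, a core subunit of Polycomb repressive complex 2, differed by -0.31 and 0.0029. Bptf, the large subunit of the NURF remodeller, differed by -0.15 and -0.23 and the corepressor gene Ncor1 by -0.09 and -0.10. Polr2a, the catalytic subunit of RNA polymerase II, had the widest SE of all 44 genes, 0.16. Polr2a signal was 633, 641 and 743 in separate wild-type and 634, 907 and 654 in separate Bmpr1a-/- cells. For Polr2a in mixed culture the values were 669.6, 795 and 708 in wild-type and 498, 731 and 691 in Bmpr1a-/- cells. The second separate Bmpr1a-/- array was the highest of all 12, and the difference of 0.11 in separate culture was -0.06 without it.

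The 6 genes of RNA processing and translation had medians of -0.19 and -0.25, and 4 of them had all 6 Bmpr1a-/- arrays lowest. The largest difference was that of Pno1, which helps assemble the small ribosomal subunit. Pno1 signal was 646, 640.2 and 575 in separate wild-type and 559.6, 433 and 483 in separate Bmpr1a-/- cells. After mixed culture, wild-type arrays gave 677, 583 and 706 for Pno1 and Bmpr1a-/- arrays 503, 453 and 481. Every Bmpr1a-/- value lay below every wild-type value. The difference was -0.34 in separate and -0.45 in mixed culture (SE 0.10 each). At the other end stood Helz, which encodes a helicase of the same broad family as RNA decay factors. Helz signal was 684, 556 and 692 in separate wild-type and 587, 738 and 629.9 in separate Bmpr1a-/- cells. After mixed culture, wild-type arrays gave 645, 658 and 728 for Helz and Bmpr1a-/- arrays 575, 769 and 746. The arrays of the lines were interleaved, and the difference was 0.02 in separate and 0.03 in mixed culture (SE 0.13 each). Xpo1, the main nuclear export receptor, differed by -0.32 and -0.27, and Prpf8, the central scaffold of the spliceosome, by -0.27 and -0.28. The differences of Eif4a1, the helicase that opens messenger RNA for translation, were -0.11 and -0.23. Those of Ddx5, an RNA helicase of splicing and transcription, were -0.06 and -0.09, and a further probe set of Ddx5 gave -0.19 and -0.15.

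The 9 genes of DNA replication, repair and division had medians of -0.38 and -0.39, and all 6 Bmpr1a-/- arrays were lowest for 6 of them. Tk1 makes thymidine monophosphate for DNA synthesis and is raised in S phase. Tk1 signal was 361, 369.7 and 333 in separate wild-type and 269, 205 and 284 in separate Bmpr1a-/- cells. After mixed culture, wild-type arrays gave 419, 369 and 395 for Tk1 and Bmpr1a-/- arrays 274, 219 and 263. No Bmpr1a-/- array reached the lowest wild-type array, and the difference was -0.50 in separate and -0.65 in mixed culture (SE 0.12 each). Top2a, the topoisomerase that untangles DNA before mitosis, had the smallest difference of this group. Top2a signal was 1732, 1504 and 1442 in separate wild-type and 1447, 1268 and 1431 in separate Bmpr1a-/- cells. Mixed wild-type cells gave 1549, 1378 and 1736 for Top2a and mixed Bmpr1a-/- cells gave 1492, 1534 and 1811. Its ranges overlapped in both cultures, and the difference was -0.17 in separate and 0.05 in mixed culture (SE 0.11 each). Rad51c, which acts in homologous recombination, had the largest difference of the 44 in separate culture at -0.76 (SE 0.15) and -0.39 in mixed culture. The single-strand DNA binding gene Rpa1 differed by -0.41 and -0.56. Brca1, which directs break repair by recombination, differed by -0.37 and -0.51, and Rad50, of the complex that senses breaks, by -0.38 and -0.16. The mitotic kinase gene Aurkb differed by -0.44 and -0.39 and Birc5, its partner survivin in the chromosomal passenger complex, by -0.29 and -0.35. For Top3a, which dissolves recombination intermediates, the values were -0.32 and -0.46.

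All 7 signalling genes had the 6 Bmpr1a-/- arrays below the 6 wild-type arrays, with medians of -0.43 and -0.41. Nf1, which encodes neurofibromin, a brake on RAS, had the largest difference. Nf1 signal was 321, 281 and 317 in separate wild-type and 189.8, 183 and 176 in separate Bmpr1a-/- cells. With the lines mixed, Nf1 read 246, 294 and 315 in wild-type and 169.8, 208 and 244 in Bmpr1a-/- cells. The highest Bmpr1a-/- value, 244, was just under the lowest wild-type value, 246, and both were in mixed culture. The difference was -0.74 in separate and -0.47 in mixed culture (SE 0.12 each). The smallest in this group was that of Grb2, the adaptor that links receptors to the RAS activator SOS. Grb2 signal was 302, 287 and 295 in separate wild-type and 279, 244 and 268 in separate Bmpr1a-/- cells. Mixed wild-type cells gave 315, 351 and 291 for Grb2 and mixed Bmpr1a-/- cells gave 267, 280.1 and 258. The ranges did not overlap, and the difference was -0.16 in separate and -0.25 in mixed culture (SE 0.08 each). Crk, another adaptor, differed by -0.46 and -0.54, and Ppp2ca, a catalytic subunit of protein phosphatase 2A, by -0.46 and -0.49. Map2k3, a kinase that activates p38, differed by -0.43 and -0.41. Ywhae, a 14-3-3 protein that binds phosphorylated partners, differed by -0.25 and -0.34. The tumour suppressor gene Nf2, whose product merlin acts upstream of the Hippo pathway, differed by -0.26 and -0.32.

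Genes of protein folding, sorting and breakdown numbered 7, with medians of -0.32 and -0.43, and 5 of them had no overlap between the lines. Spop selects substrates for a cullin 3 ubiquitin ligase. Spop signal was 906, 1034 and 805 in separate wild-type and 790.3, 546 and 570.3 in separate Bmpr1a-/- cells. For Spop in mixed culture the values were 976, 874 and 839 in wild-type and 636, 488 and 517 in Bmpr1a-/- cells. The first separate Bmpr1a-/- array was the highest of its group and still under every wild-type array. The difference was -0.54 in separate and -0.72 in mixed culture (SE 0.14 each). Canx, the calnexin chaperone of the endoplasmic reticulum, had the smallest difference of this group. Canx signal was 3263, 3588 and 3132 in separate wild-type and 3225, 2855 and 2673 in separate Bmpr1a-/- cells. Mixed wild-type cells gave 3262, 3135 and 2986 for Canx and mixed Bmpr1a-/- cells gave 2943, 2841 and 2868. Its ranges overlapped in separate culture only, and the difference was -0.19 in separate and -0.12 in mixed culture (SE 0.08 each). P4hb, which forms disulfide bonds in the endoplasmic reticulum, differed by -0.39 and -0.67. The proteasome cap genes Psmd12 and Psmd11 differed by -0.32 and -0.54 and by -0.25 and -0.36 respectively. Hspa4, a partner of the HSP70 chaperones, differed by -0.33 and -0.43, and Hgs, which sorts ubiquitinated receptors in endosomes, by -0.19 and -0.14.

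In the 4 genes of cytoskeleton and vesicles the medians were -0.32 and -0.21, and 2 had no overlap between the lines. Flii, an actin-remodelling protein that also binds nuclear receptors, had the largest difference and little spread. Flii signal was 360.2, 363 and 367 in separate wild-type and 289, 284 and 279 in separate Bmpr1a-/- cells. Mixed wild-type cells gave 358, 359 and 381 for Flii and mixed Bmpr1a-/- cells gave 288, 319.8 and 304. All Bmpr1a-/- values were under 320 and all wild-type values above 357. The difference was -0.36 in separate and -0.27 in mixed culture (SE 0.06 each). Cltc, the clathrin heavy chain, had the smallest. Cltc signal was 2827, 2547 and 2905 in separate wild-type and 2460.5, 1997 and 2406 in separate Bmpr1a-/- cells. After mixed culture, wild-type arrays gave 2567, 3029.9 and 2919 for Cltc and Bmpr1a-/- arrays 2167, 2748 and 2832. Its ranges were apart in separate culture and overlapped in mixed culture, where the difference was -0.14 against -0.27 in separate culture (SE 0.11). Without the first mixed Bmpr1a-/- array, the lowest of its group, the mixed value was -0.02. Actr2, a subunit of the Arp2/3 complex that branches actin, differed by -0.27 and -0.27, and the kinesin motor gene Kif3a by -0.40 and -0.11.

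The lower signal ran along the whole of chromosome 11. The 630 genes with at least the signal of the lowest member were ordered by position and divided into 10 stretches of 63 genes. The median difference of the stretches lay between -0.25 and -0.37 in separate culture and between -0.37 and -0.44 in mixed culture, and each stretch held 3 to 7 of the 44 genes. Genes next to each other could still differ. Psmd12 and Helz, with 0 coding genes between them, stood at -0.32 and 0.02 in separate and -0.54 and 0.03 in mixed culture. Maml1 and Canx, also adjacent, stood at -0.29 and -0.19 in separate and -0.44 and -0.12 in mixed culture. Stat5b and Stat3, with 1 gene between them, stood at -0.72 and -0.34, then -0.59 and -0.15.

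**Figure D3:**
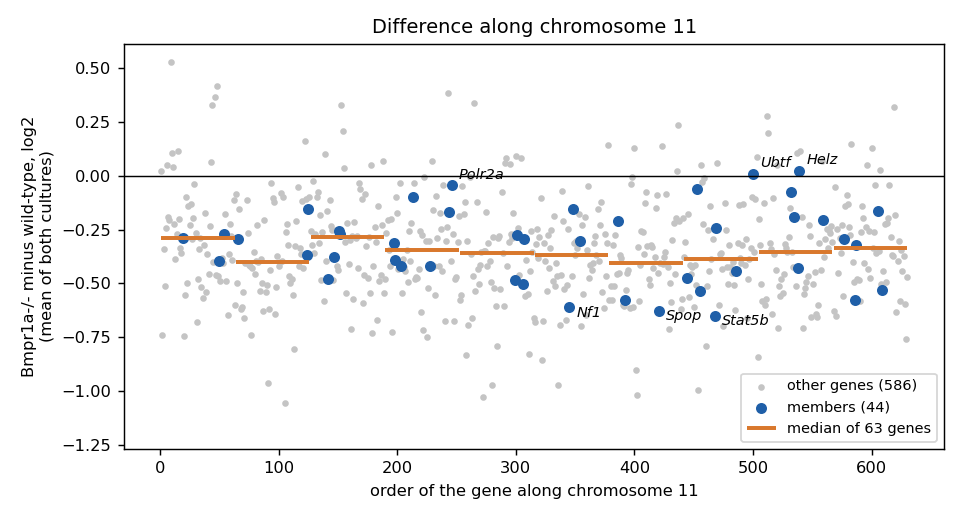
Difference in log2 signal between Bmpr1a-/- and wild-type cells, averaged over both cultures, against the order of 630 genes along chromosome 11; large points are the 44 genes, small points the other 586, and bars the median of each stretch of 63 genes. Every stretch has a median below 0, and the 44 genes lie within the spread of their neighbours from one end to the other.

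No other autosome had a shift of this size. Among genes of the same signal, the medians of the other 18 autosomes lay between -0.07 and 0.03 in separate culture and between -0.16 and -0.01 in mixed culture, with chromosome 19 the lowest in both. The X chromosome differed the other way, with medians of 0.24 and 0.26 over 251 genes. On chromosome 11 itself the difference was small where signal was low. With all genes tested cut into 5 equal bins of signal, the separate-culture medians of chromosome 11 genes were -0.02, -0.04, -0.23, -0.31 and -0.32 from the dimmest to the brightest, and the mixed-culture medians -0.01, -0.04, -0.25, -0.39 and -0.43. The 5 medians of other chromosomes ran from -0.04 to 0.02 in separate culture. Of the 44 genes 34 were in the brightest bin, 8 in the next and 2 in the middle one, so their values are best set against genes of like signal.

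**Figure D4:**
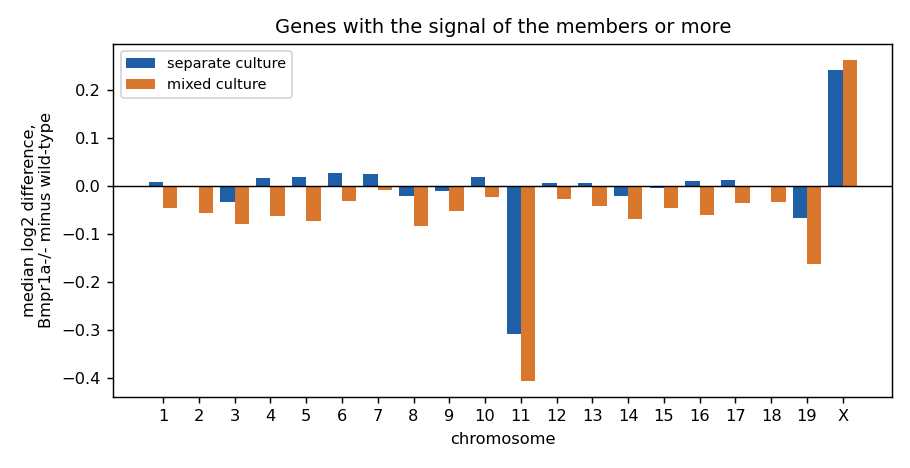
Median difference in log2 signal between Bmpr1a-/- and wild-type cells for each chromosome, over genes with at least the signal of the lowest of the 44 genes; dark bars are separate and light bars mixed culture, and the axis includes 0. Chromosome 11 is at -0.31 and -0.41 and the X chromosome at 0.24 and 0.26, and the other autosomes lie between -0.16 and 0.03.

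At the ends of chromosome 11, among genes over the median signal that are not in the list, the lowest averages belonged to Gprc5c, an orphan receptor gene (-1.46 and -0.91, SE 0.18), Pttg1, securin, which restrains separase (-1.16 and -0.95, SE 0.19), Eno3, an enolase of glycolysis (-1.10 and -0.96, SE 0.10), Stxbp4 (-0.99 and -1.04, SE 0.15) and Igfbp4, a binding protein of insulin-like growth factors (-0.81 and -1.18, SE 0.13). All 5 exceeded any of the 44 genes in size. The highest belonged to Tug1, a long noncoding RNA (0.49 and 0.56, SE 0.08), the imprinted adaptor gene Grb10 (0.63 and 0.21, SE 0.15), Cd68 (-0.03 and 0.80, SE 0.19), Upp1, uridine phosphorylase (-0.10 and 0.83, SE 0.16), and the chemokine gene Cxcl16 (-0.12 and 0.80, SE 0.21). The last 3 differed in mixed culture far more than in separate culture.

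Partners of the 44 genes that are coded on other chromosomes had medians close to those of other genes there. From general knowledge 151 partner genes were listed for the complexes and pathways of the 44, of which 148 were measured, 135 of them on other chromosomes and 13 on chromosome 11. The 135 had median differences of 0.02 in separate and -0.08 in mixed culture. At an adjusted p under 0.05 in limma, 3 were lower and 11 higher in separate culture, where 11.2% of all genes passed in either direction, and 10 were lower and 9 higher in mixed culture, where 16.5% passed. In both cultures 6 passed: Tbl1x, Jarid2, Cltb, Rrn3, Smarca1 and Gab1. The 13 partners on chromosome 11 had medians of -0.36 and -0.56, and all 13 were below 0 in both cultures. In separate and mixed culture 9 and 10 of them were called lower (6.30% and 10.1% of all genes). Calls of lower numbered 258 and 350 among the 586 chromosome 11 genes outside the 44 with at least the lowest member's signal. Of those 586 genes, 93.0% and 89.6% were below 0. The difference was already known for this chromosome, so nothing is read from the counts for its partners. The separate-culture count of 14 was 6 without the second separate wild-type or the second separate Bmpr1a-/- array and 9 without the third separate Bmpr1a-/- array. The mixed-culture count of 19 was 11 without the first mixed wild-type array, 9 without the second mixed Bmpr1a-/- array and 11 without the third mixed Bmpr1a-/- array.

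The subunits of Mediator are spread over many chromosomes. Med1 differed by -0.38 and -0.57. The 5 other listed subunits coded on chromosome 11, Med7, Med9, Med11, Med24 and Med31, had medians of -0.41 and -0.55, and the 21 listed ones coded elsewhere 0.16 and -0.04. Med13, a further subunit on chromosome 11 that was not in the partner list, stood at -0.35 and -0.30. In the regulatory cap of the proteasome, the mean of Psmd11 and Psmd12 was -0.28 and -0.45, the median of Psmd3 and Psmc5, also on chromosome 11, was -0.24 and -0.53, and that of 13 subunits elsewhere was -0.06 and -0.22. The spliceosome pair on chromosome 11, Prpf8 and Eftud2, differed by -0.27 and -0.28 and by -0.48 and -0.68, and 5 other partners of Prpf8 had medians of 0.07 and -0.14. In RNA polymerase II, Polr2a stood at 0.11 in separate and -0.19 in mixed culture, and its 10 partners at medians of 0.03 and -0.24. The separate value of Polr2a was -0.06 without the second separate Bmpr1a-/- array.

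**Figure D5:**
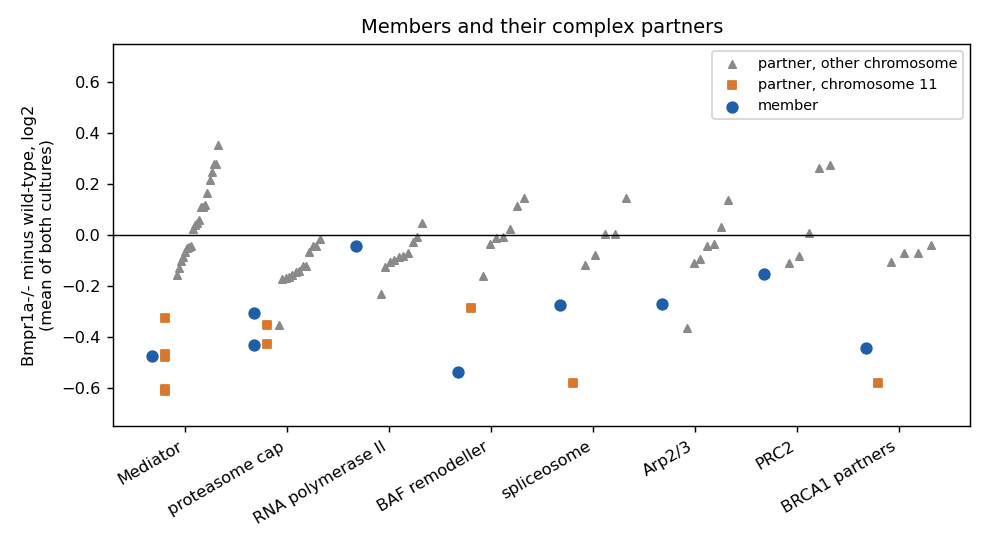
Difference in log2 signal between Bmpr1a-/- and wild-type cells, averaged over both cultures, for members of 8 complexes or groups of partners; circles are genes of the list, squares their partners on chromosome 11 and triangles their partners on other chromosomes, each point 1 gene. The partners on chromosome 11 all lie below -0.2, as does each listed gene shown other than Polr2a and Suz12, while most triangles lie between -0.2 and 0.2.

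Single partners on other chromosomes did differ between the lines, many of them in only one of the cultures. In separate culture the 12 with the smallest p included 10 that were higher: the clathrin light chain gene Cltb (0.71, SE 0.11, limma adjusted p = 0.0014), Gab1, a docking protein that binds Grb2 (0.57, SE 0.10, adjusted p = 0.0045), the leukaemia inhibitory factor receptor gene Lifr (0.65, SE 0.14), the corepressor subunit Tbl1x (0.46, SE 0.10), the Polycomb genes Eed (0.43, SE 0.09) and Jarid2 (0.26, SE 0.07), the RNA polymerase I genes Polr1a (0.38, SE 0.08) and Rrn3 (0.40, SE 0.10), the nuclear pore gene Nup214 (0.47, SE 0.11) and Med14 (0.42, SE 0.11). Lower were the NURF ATPase gene Smarca1 (-0.43, SE 0.08, adjusted p = 0.0053) and the Arp2/3 subunit Arpc5 (-0.40, SE 0.11, adjusted p = 0.033). Lifr (0.01), Polr1a (0.06), Eed (0.10), Nup214 (0.13), Med14 (0.14) and Arpc5 (-0.33) did not pass in mixed culture. In mixed culture Rbpj, the DNA-binding factor of Notch signalling with which Maml1 acts, was higher (0.65, SE 0.07, adjusted p = 6.9e-05), as were Gab1 (0.94, SE 0.10), Tbl1x (0.59, SE 0.10), Cltb (0.56, SE 0.11), the cytokine receptor gene Il6st (0.50, SE 0.11) and Jarid2 (0.29, SE 0.07). Smarca1 (-0.56, SE 0.08), the proteasome genes Psmd13 (-0.46, SE 0.10) and Psmc2 (-0.24, SE 0.06), the recombination gene Xrcc2 (-0.39, SE 0.08), Rpa3 (-0.33, SE 0.07) and the phosphatase scaffold gene Ppp2r1b (-0.43, SE 0.11) were lower. Rbpj (0.20), Il6st (0.17), Psmd13 (-0.24), Psmc2 (0.16), Xrcc2 (-0.05), Rpa3 (-0.14) and Ppp2r1b (-0.19) did not pass in separate culture. Smarca1, Tbl1x and Med14 lie on the X chromosome, where the median difference was above 0.

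Close paralogs can share probe sequence with a gene and were read beside it. The paralogs on other chromosomes did not pass in separate culture: Ppp2cb -0.09 (SE 0.06), Eif4a2 -0.12 (SE 0.11), Crkl 0.11 (SE 0.07) and Top2b 0.02 (SE 0.12). In mixed culture Ppp2cb was lower (-0.25, SE 0.06, limma adjusted p = 0.016). Eif4a2, Crkl and Top2b were at 0.13, 0.01 and -0.08. On chromosome 11, Stat5a, beside Stat5b, differed by -0.30 and -0.25 (SE 0.09) and Nme2 by -0.12 and -0.40 (SE 0.09). That Nme2 probe set stood among probe sets of chromosome 5 (12 of 13 placed neighbours), and the one among chromosome 11 neighbours gave -0.29 and -0.42.

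Several probe sets were present for 4 of the 44 genes, and their values differed. The highest-mean probe set of Eif4a1 stood in the file among probe sets of chromosome 19 (16 of 17 placed neighbours), and that of Tk1 among probe sets of chromosome 8 (12 of 14), and whether they read copies of the gene elsewhere was not tested. The Eif4a1 probe set among chromosome 11 neighbours gave -0.12 and -0.24, against -0.11 and -0.23, and that of Tk1 gave -0.60 and -0.57, against -0.50 and -0.65. A further probe set of Ddx5 gave -0.19 and -0.15, against -0.06 and -0.09, and a further one of Bptf gave -0.09 and -0.33, against -0.15 and -0.23. Among the probe sets of the 44 genes in file order, the Ddx5 one used came just before Maml1. The further Ddx5 one came just before Bptf, which has 4 coding genes between it and Ddx5 on the chromosome. Which of these reads Ddx5 better was not tested. The 2 listed genes that the exact match did not find were Hnrnpab, present under the older symbol Hnrpab with -0.21 and -0.33 (SE 0.06), and Nme1, present only on a probe set shared with LOC100046344 with -0.31 and -0.77.

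Whether growing beside the other line changed these genes is a question the list did not use, so it was tested. The mixed cells were sorted on GFP, and whether the separate cells also went through a sorter is stated by no source used here; co-culture and sorting therefore cannot be told apart in these values. In Bmpr1a-/- cells, mixed minus separate culture gave a median of -0.02 over the 44 genes, and -0.02 over all genes. With at least the signal of the lowest member, it was -0.08 over other chromosome 11 genes and -0.04 over genes elsewhere. None of the 44 passed limma at an adjusted p under 0.05, where 279 of all genes (1.58%) did. The count at an unadjusted p under 0.05 was 5 of the 44, against 14.9% of all genes. At like signal the share was 27.5% of other chromosome 11 genes and 23.3% of genes elsewhere. The 5 of the list were Smarce1 (-0.28, SE 0.08, adjusted p = 0.12), P4hb (-0.23, SE 0.07, adjusted p = 0.13), Jmjd6 (-0.26, SE 0.08, adjusted p = 0.11), Kif3a (0.21, SE 0.08, adjusted p = 0.21) and Rad51c (0.34, SE 0.15, adjusted p = 0.30). The 3 arrays of each culture lay apart for 9 of the 44, 5 lower and 4 higher in mixed culture, against 18.0% of all genes in either direction. In wild-type cells the median change was 0.03, and the arrays of the cultures lay apart for 4 of the 44, all higher in mixed culture, against 6.99% of all genes. None of the 44 passed, 0 had an unadjusted p under 0.05, and no gene of the 17621 passed, with 516 at an unadjusted p under 0.05.

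Same-numbered mixed and separate Bmpr1a-/- arrays deviated together, and with the replicate number as a block 878 of the 17621 genes tested passed in these cells. Smarce1 was then the 1 of the 44 that did, with a change of -0.28 (SE 0.07, adjusted p = 0.0447). Smarce1 signal was 1313, 1507 and 1465 in separate wild-type and 1094, 1143 and 1052 in separate Bmpr1a-/- cells. For Smarce1 in mixed culture the values were 1317, 1602 and 1459 in wild-type and 853, 894 and 956 in Bmpr1a-/- cells. The mixed Bmpr1a-/- arrays were the lowest of all 12 and the separate Bmpr1a-/- arrays came next, while the wild-type cultures overlapped. The count of 279 over all genes was 50, 66, 130 and 73 without the second mixed, the third mixed, the first separate and the second separate Bmpr1a-/- array respectively, and none of the 44 passed in any of these fits.

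The difference between the lines was also compared between the cultures. This interaction uses the same arrays and is the gap between the differences on which the list was selected. It is therefore no independent test of the 44, and nothing is read from how many passed. The interaction had a median of -0.06 over the 44 genes, and none passed, where 121 of all genes (0.687%) did. The lowest adjusted p was 0.25, for P4hb, whose difference was 0.29 further below 0 in mixed culture (interaction -0.29, SE 0.10). Smarce1 (-0.31, SE 0.12), Jmjd6 (-0.29, SE 0.11), Kif3a (0.29, SE 0.11) and Suz12 (0.31, SE 0.13) also had an unadjusted p under 0.05. That made 5 of the 44, against 11.3% of all genes. With at least the signal of the lowest member, the share was 17.7% of other chromosome 11 genes and 17.4% of genes elsewhere. A p that misses the threshold does not show that the cultures act alike. The count of 121 ranged from 25 to 132 when each array was left out in turn, and fell to 70 or fewer without any 1 of the mixed wild-type arrays, the first or second separate wild-type, the second mixed Bmpr1a-/-, the third mixed Bmpr1a-/-, or the first or second separate Bmpr1a-/- array.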

How the data were processed

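Log2 expression of 12 Affymetrix arrays was analysed, and the members and gene lists were chosen with earlier results of these data known. Per the file headers, the authors summarised the arrays with RMA (ExonRMA16, core transcripts), quantile normalized them and set a baseline at the median of all samples, leaving out 1 array of another day; the submitters' processing notes name Affymetrix Expression Console 1.2. The deposited series table holds log2 values with that baseline removed. A deposited workbook sheet holds linear intensity values, whose log2 is offset from the series table equally on all arrays of a probe set (within 2.18e-06), so they are RMA signal and not raw intensities. Log2 of that sheet was used because centred values carry no level.

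Of 28815 probe sets, 22700 had 1 symbol, 2478 several and 3637 none. Symbols were matched to the RefSeq table of GRCm38.p6: 16822 were current, 2621 matched by accession, 1279 by synonym and 1978 were kept as in the file. Each gene was read on its probe set of highest mean signal, and genes under the 20th percentile of mean signal (25.4) were left out, which left 17621. Gene order and chromosomes come from that table; the build behind the arrays' annotation was not given in the sources used here. Group means of the 4 groups were fitted with limma 3.58.1 in R 4.3.3 (8 residual degrees of freedom, a median of 12.7 after eBayes), two-sided, with Benjamini-Hochberg adjustment over all genes and a threshold of 0.05. The fit was tested on simulated data. The number of arrays limits the precision.

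Values of every array were printed for the genes with the largest and the smallest difference between the lines within each role; Polr2a and Smarce1 were added after their values were seen. Outside the list the rule named Bmpr1a, the 5 lowest and 5 highest other chromosome 11 genes over the median signal, the 12 partners elsewhere with the smallest p per culture and the close paralogs. Other genes named, such as single complex subunits, were chosen after their values were seen. Replicate numbers come from the titles, and the file headers number the arrays of every group alike, as exp1 to exp3. Deviations of same-numbered arrays from their group means correlated at 0.394, 0.148 and 0.365 between the Bmpr1a-/- cultures. Between the lines in mixed culture the values were 0.641, 0.381 and 0.421. They were 0.566, -0.104 and 0.139 between the wild-type cultures and 0.061, 0.046 and 0.342 between the lines in separate culture. The main fit had no block for any contrast, so its SEs and p-values are unpaired. A fit with the replicate number as a block for all contrasts was run as an alternative. Alternatives covered the source table, the signal filter, normalization, centring, probe set choice, eBayes settings, the samples in the fit, the block and each array left out.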

Additional observations from a re-analysis of the deposited data

Results flagged for a closer look

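Among the 135 partner genes on other chromosomes, 3 were lower in all mixed than in all separate Bmpr1a-/- arrays and higher in all mixed than in all separate wild-type arrays. Over all genes, the arrays of the cultures lay apart in either direction for 18.0% in Bmpr1a-/- and 6.99% in wild-type cells. The share of all genes that met both conditions is not given here, so nothing is read from the count of 3. The test of the difference between these changes did not pass for any of the 3. Eif4g2, a translation initiation factor, changed by -0.13 with co-culture in Bmpr1a-/- and by 0.12 in wild-type cells, an interaction of -0.245 (SE 0.10, limma adjusted p = 0.322). Med17, a Mediator subunit, changed by -0.14 and by 0.09 (interaction -0.226, SE 0.09, adjusted p = 0.331). Psmc2, an ATPase of the proteasome, fell in Bmpr1a-/- cells (-0.32, adjusted p = 0.0277) and stood at 0.09 in wild-type cells, with an interaction of -0.403 (SE 0.09, adjusted p = 0.065).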

How the results depend on the processing

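Of 314 values that answer a comparison, 275 stayed within a set bound and 39 moved beyond it. The bound was a fixed ratio for counts and the spread of replicate arrays for differences. Direction was not part of it, and some signs changed, as given below. Of 384 values for the single genes printed array by array, 1 moved (Flii in separate culture, -0.34 with arrays centred on genes outside chromosome 11). The median of the 44 genes ranged from -0.344878 to -0.27402 in separate and from -0.364033 to -0.309297 in mixed culture with each array left out in turn. With the replicate block, 878 genes passed for co-culture in Bmpr1a-/- cells (1 of the 44), 387 for the interaction and 22 partners in separate culture. Fitted on only the groups of the contrast, these were 46 genes for co-culture in Bmpr1a-/- cells, 1170 for the lines in separate culture and 8 partners. That setting does not apply to the interaction, which uses all groups. The median of other chromosome 11 genes in mixed culture was -0.115741 with no signal filter, -0.34339 over genes above the median signal (-0.276908 in separate culture) and -0.140213 with arrays centred on genes outside chromosome 11. Genes of other chromosomes were at -0.0460799 in mixed culture over genes above the median signal, and with that centring at 0.00569877 in separate and 0.000192092 in mixed culture, where 1 gene passed for co-culture in wild-type cells. With each array left out in turn, 50 to 390 genes passed for co-culture in Bmpr1a-/- cells, 25 to 132 for the interaction, 1083 to 1967 for the lines in separate culture (lowest without the second separate Bmpr1a-/- array, and 1106 without the second separate wild-type array), 1851 to 3122 in mixed culture (lowest without the second mixed Bmpr1a-/- array), 6 to 14 partners in separate and 9 to 24 in mixed culture. The mixed-culture medians then lay from -0.162137 to -0.14856 for other chromosome 11 genes and from -0.0295074 to -0.00924641 for other chromosomes. The sign of Helz, Suz12, Top2a, Ncor1, Polr2a and Ubtf changed in one culture or the other when a single array was left out, and that of Helz also after quantile normalization was repeated. Where no cause is visible in how a setting is built, the cause was not tested. Other probe sets for Eif4a1, Tk1 and Ddx5 were chosen after seeing the data.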
